A study of Mus musculus with 16 samples.

Results

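The enzymes that make reactive oxygen and nitric oxide at the gut surface were followed through 8 genes: Nox1, Noxo1, Noxa1, Nox4, Cyba, Duox2, Duoxa2 and Nos2. They were taken by symbol from the deposited count tables, and all 8 were found among the 46882 genes listed. Of these, 7 had enough counts to be tested along with 16001 genes in all, and Nox4 did not. The material was bulk RNA of sorted intestinal epithelium from RedMUC298trTg mice, 6 to 8 weeks old, a reporter line that carries an mCherry-tagged MUC2. The 4 groups, with 4 libraries each, were mCherry-positive (goblet) cells of the distal colon (DC), mCherry-negative (other) epithelial cells of DC, goblet cells of section 8 of the small intestine (Si8) and other cells of Si8. Cells of all 4 groups came from the transgenic line, and a C57Bl6 mouse was used only to set the sort gate. The sources used here do not give the promoter of the transgene or the number of animals. RNA of goblet cells was bound to MinElute columns and RNA of the other cells to Mini columns, so column and cell type cannot be told apart. Because nothing states that the libraries came from separate animals, p-values measure only the spread between these libraries, which may be technical.

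Library totals were 11.9 to 18.5 M counts in DC goblet cells, 14.9 to 17.7 M in DC other cells, 37.4 to 40.5 M in Si8 goblet cells and 30.8 to 41.1 M in Si8 other cells. CPM are read counts per M counts of the tested genes in the library, scaled by TMM factors, and not per M of these totals. The 8 goblet markers summed to 38562 to 43630 CPM in DC goblet cells against 446 to 588 CPM in DC other cells. In Si8 they summed to 125831 to 286860 CPM in goblet cells against 311 to 790 CPM in other cells. The Si8 goblet sort also carried the Paneth markers, at 12042 to 32220 CPM against 659 to 1759 CPM in Si8 other cells. Summed lymphocyte markers were lower in the goblet sorts, at 0 to 0.109 CPM against 0.583 to 1.10 CPM in DC other cells. In Si8 they were at 7.46 to 15.4 CPM against 178 to 290 CPM in other cells. In DC 4 of 6 markers were at 0 in goblet cells, and none had more than 23 counts in the 4 other-cell libraries together. By the test given below 3 of 6 were called lower in DC and 6 in Si8, against 27.9% and 31.8% of all tested genes. With 1 library left out the number in DC was 3 to 4. In bulk RNA, fewer cells of a type and less RNA per cell cannot be told apart.

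NADPH oxidases pass electrons from NADPH across a membrane to oxygen, which gives superoxide or hydrogen peroxide on the far side. Nox1 is the catalytic subunit best known from colon epithelium. It needs the membrane partner p22phox, encoded by Cyba, an organizer, Noxo1, and an activator, Noxa1, together with the small GTPase Rac1. Nox4 also pairs with p22phox and releases hydrogen peroxide without organizer or activator. Duox2 is a dual oxidase that releases hydrogen peroxide towards the lumen, where it limits contact of microbes with the epithelium, and Duoxa2 is the maturation factor that takes it out of the endoplasmic reticulum. Nos2 is the inducible nitric oxide synthase, which makes nitric oxide from arginine and is known from macrophages and from stimulated gut epithelium.

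Duox2 (chr2:122279247-122298449, minus strand) and Duoxa2 (chr2:122298900-122302885, plus strand) lie head to head on mouse chromosome 2, with annotated starts 451 bp apart in GENCODE M21 on GRCm38, the mm10 build. Their promoter windows are shown because the groups stood in the same order for both genes. Their goblet effects did not move alike, as only that of Duoxa2 differed between the regions. The window of Nox1 is shown because its goblet effect differed between the regions. Each window runs from 250 bases before to 50 bases after the RefSeq start on GRCm38.p6, 5′ to 3′ on the strand of the gene, at chr2:122298178-122298477 (minus) for Duox2, chr2:122298650-122298949 (plus) for Duoxa2 and chrX:134111805-134112104 (minus) for Nox1. Capitals mark matches to the motifs searched. The RefSeq start lies 222 bp from the GENCODE start for Duox2 and 110102 bp from it for Nox1, so the Nox1 window is not at the 5′ end of the GENCODE gene coordinates given below.
Duox2 promoter: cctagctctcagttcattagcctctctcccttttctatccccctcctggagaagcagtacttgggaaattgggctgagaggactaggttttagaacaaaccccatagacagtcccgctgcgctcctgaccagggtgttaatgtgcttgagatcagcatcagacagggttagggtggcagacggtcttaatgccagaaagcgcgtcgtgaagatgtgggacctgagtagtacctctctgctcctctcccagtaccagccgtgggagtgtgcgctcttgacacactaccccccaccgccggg
Duoxa2 promoter: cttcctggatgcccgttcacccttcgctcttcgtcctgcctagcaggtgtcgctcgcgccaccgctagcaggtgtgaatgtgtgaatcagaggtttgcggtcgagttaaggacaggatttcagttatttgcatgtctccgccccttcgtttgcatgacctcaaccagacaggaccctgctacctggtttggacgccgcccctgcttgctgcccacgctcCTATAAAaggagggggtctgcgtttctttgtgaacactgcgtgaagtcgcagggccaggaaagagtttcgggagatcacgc
Nox1 promoter: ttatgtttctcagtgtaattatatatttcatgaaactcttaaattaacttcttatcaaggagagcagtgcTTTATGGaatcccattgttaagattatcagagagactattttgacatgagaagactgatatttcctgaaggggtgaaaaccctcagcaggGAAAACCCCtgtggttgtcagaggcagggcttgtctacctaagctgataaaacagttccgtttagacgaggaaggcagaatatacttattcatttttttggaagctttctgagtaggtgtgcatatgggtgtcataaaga

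The motifs were searched on both strands, with the letters TTCNNNGAA for STAT, GGGNNTTTC for NF-kB (the first 9 letters of its site), TGACNNNGC for the antioxidant response element, TTTATNG for CDX, AGATAA for GATA factors and TATAAA for the TATA box. Duoxa2 held a TATA box 30 bases before its start, which overlaps a CDX match on the opposite strand at 31 bases. Nox1 held a CDX match at 180 bases before its start and an NF-kB match on the opposite strand at 90 bases. The Duox2 window held none of the 6 motifs. Among 32851 RefSeq promoters of the same length, 8.3% held the STAT motif, 4.36% NF-kB, 12.4% the antioxidant response element, 10.9% CDX, 11.2% GATA and 13.6% the TATA box. Of the other members with an entry, Noxa1 and Cyba each held a GATA match, Nox4 held a STAT match and Noxo1 held none. A match describes these letters and is not evidence of binding.

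In both regions goblet cells had less Duox2, Duoxa2, Nos2 and Cyba mRNA than the other epithelial cells. Nox1 and Noxa1 were lower in goblet cells of DC and higher in goblet cells of Si8, while Noxo1 did not pass the test in any comparison. Of these calls, that of Nox1 was lost in 7 of 21 alternatives in each region and that of Noxa1 in DC in 4 of 21, and the others held in all. Between regions, Nos2, Duox2, Duoxa2 and Cyba were lower in DC than in Si8 in both cell types, by up to 324-fold for Nos2, and Nox1 was higher in DC. Calls below are from edgeR's quasi-likelihood test at a Benjamini-Hochberg adjusted p under 0.05 over all 16001 genes, changes are log2 fold changes ± SE, and levels are CPM.

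In DC, 0 of the 7 tested members were higher and 6 were lower in goblet than in other cells. Over all tested genes 27.8% were called higher and 27.9% lower in that comparison. In Si8, 2 members were higher and 4 lower, where 33.1% of all genes were called higher and 31.8% lower. The median log2 fold change of the 7 members was −0.86 in DC and −0.52 in Si8, and that of all tested genes was 0.03 in both. The 2 members higher in Si8 were Nox1 and Noxa1. With 1 library left out the count lower in DC was 4 without S9, S18, S10 or S14. Without S13 or S12 only Nox1 lost its call in DC. The count higher in Si8 was 1 without S2, S8, S3, S5 or S7.

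**Figure D1:**
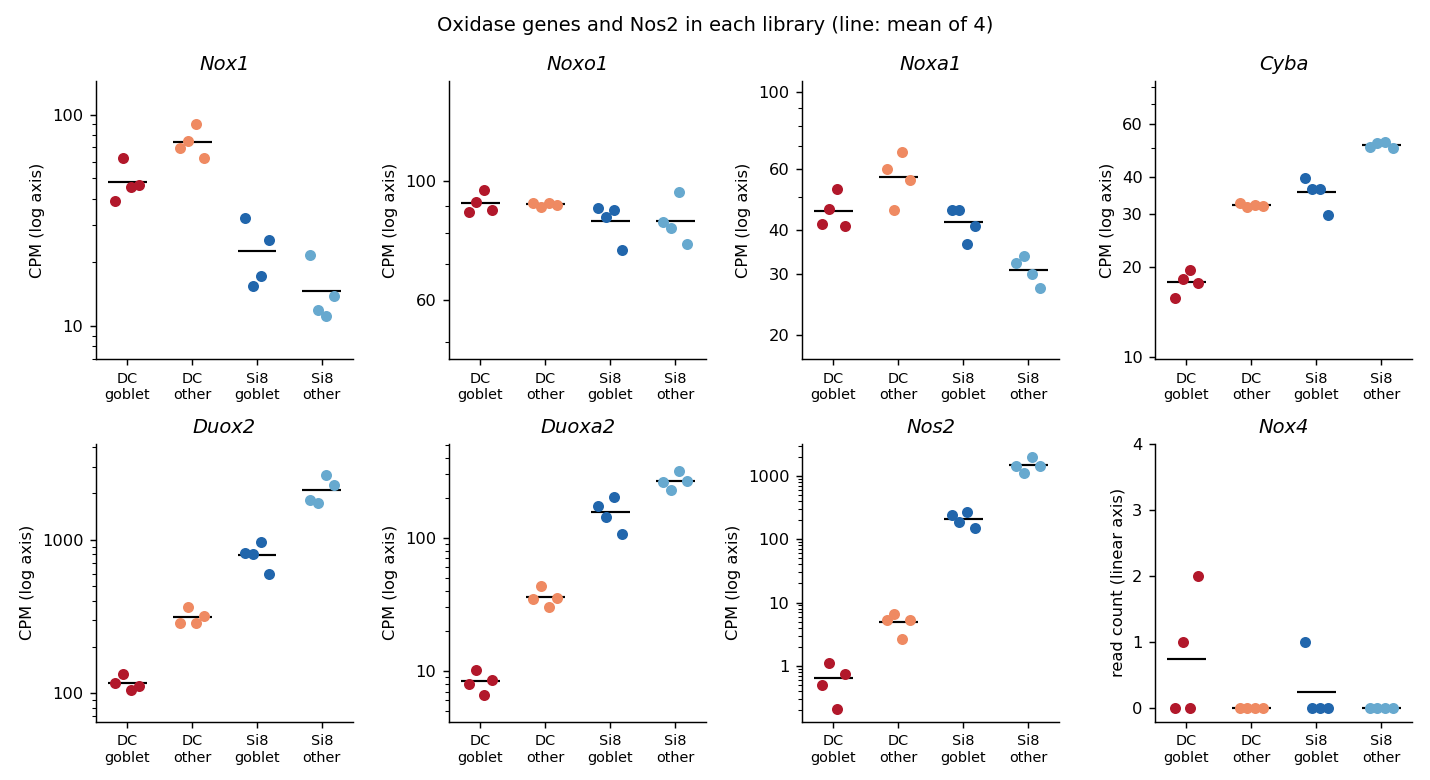
CPM in each of the 16 libraries on log axes for the 7 tested genes and read counts on a linear axis for Nox4, with 4 points and their mean (line) per group. Duox2, Duoxa2 and Nos2 climb from DC goblet cells to Si8 other cells with no overlap between neighbouring groups, whereas Noxo1 lies between 74.3 and 96.4 CPM in all 16 libraries.

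Nox1 (chrX:134086421-134221956, minus strand) had 39.0, 62.1, 45.3 and 46.3 CPM in DC goblet libraries S9, S11, S13 and S18, against 69.4, 75.4, 90.3 and 62.6 CPM in DC other libraries S10, S12, S14 and S17. In Si8 it had 32.5, 15.5, 17.2 and 25.4 CPM in goblet libraries S2, S4, S6 and S8, against 21.6, 11.8, 11.1 and 13.9 CPM in other libraries S1, S3, S5 and S7. In DC every goblet library lay below every other-cell library, with S11 and S17 nearly equal, and in Si8 the groups overlapped because other-cell library S1 exceeded S4 and S6. The goblet effect was −0.63 ± 0.24 in DC (adjusted p = 0.0350) and 0.64 ± 0.24 in Si8 (adjusted p = 0.0316). The difference between these effects, −1.26 ± 0.34, passed its own test (adjusted p = 0.00962). Neither single call held in every alternative. That of DC was lost without S9 (adjusted p = 0.103), S13 (0.0843), S18 (0.0775), S10 (0.0521), S12 (0.0544) or S14 (0.107). That of Si8 was lost without S2 (0.138), S8 (0.0691), S3 (0.0918), S5 (0.0954) or S7 (0.0734), and where each region was fitted alone (0.0586). With no filter on low counts both were lost, at an adjusted p of 0.127 in DC and 0.0959 in Si8. The difference stayed under the threshold in all 20 alternatives, with an adjusted p of at most 0.0407.

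Noxa1 (chr2:25085667-25095149, minus strand), the activator of Nox1, followed a similar course at a smaller scale. It had 41.7, 46.1, 52.7 and 41.2 CPM in DC goblet libraries S9, S11, S13 and S18, against 59.9, 45.6, 67.2 and 55.6 CPM in DC other libraries S10, S12, S14 and S17. It had 45.8, 45.7, 36.5 and 41.2 CPM in Si8 goblet libraries S2, S4, S6 and S8, against 32.3, 33.7, 29.8 and 27.3 CPM in Si8 other libraries S1, S3, S5 and S7. The DC groups overlapped through S12, and the Si8 groups did not overlap. Noxa1 fell by 0.33 ± 0.11 in DC goblet cells (log2, adjusted p = 0.0193) and rose by 0.46 ± 0.11 in Si8 goblet cells (adjusted p = 0.00155). The difference of −0.79 ± 0.16 had an adjusted p of 0.000764. The call in DC was lost without S9 (adjusted p = 0.0658), S18 (0.0680), S10 (0.0534) or S14 (0.0891), whereas the call in Si8 and the difference held in every alternative run. Beside the rise of Nox1 and Noxa1 in the Si8 goblet sort, stem markers summed to 697 to 1175 CPM against 687 to 778 CPM in Si8 other cells, and the Paneth markers given above were higher too. Most of the stem sum was Olfm4, at 681 ± 202 CPM in Si8 goblet against 501 ± 46.8 in Si8 other cells. Of the 5 stem markers 3 were called higher and 1 lower, the lower one being Axin2, at 84.5 ± 13.9 CPM in Si8 goblet against 173 ± 20.9 in Si8 other cells. The number higher was 2 to 3 with 1 library left out. Over all tested genes 33.1% were called higher and 31.8% lower in Si8. In DC the stem markers summed to 81.1 to 94.2 CPM in goblet against 89.8 to 127 CPM in other cells. There 0 were called higher and 1 lower, or 1 to 2 lower with 1 library left out. The shares of all genes in DC were 27.8% higher and 27.9% lower. The part of stem and Paneth cells in the changes of Nox1 and Noxa1 was not tested.

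Noxo1 (chr17:24696234-24700529, plus strand), the organizer, was the steadiest of the members. It averaged 91.0 ± 4.0 CPM in DC goblet cells, 90.6 ± 0.769 in DC other cells, 84.5 ± 6.94 in Si8 goblet cells and 84.4 ± 8.11 in Si8 other cells (SD, n = 4 libraries each). The goblet effect was 0.01 ± 0.08 in DC and 0.00 ± 0.08 in Si8, with 95% intervals of −0.15 to 0.17 and −0.16 to 0.16. The sign of both effects turned with RLE factors in place of TMM factors, to −0.034 in DC and −0.052 in Si8. In the annotation 70.4% of the exon length of Noxo1 is shared with Tbl3 on the opposite strand, which had 332 to 1571 counts per library. The strand setting of the counting is not given, so the Noxo1 level is uncertain. Shared stretches were shorter for Nox1 (12.1%, with Cstf2) and Noxa1 (3.09%, with Entpd8).

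Cyba (chr8:122424776-122432930, minus strand), the p22phox subunit, had 15.8, 18.3, 19.5 and 17.6 CPM in DC goblet libraries S9, S11, S13 and S18, against 32.8, 31.8, 32.2 and 32.1 CPM in DC other libraries S10, S12, S14 and S17. In Si8 it had 39.7, 36.6, 36.5 and 29.9 CPM in goblet libraries S2, S4, S6 and S8, against 50.4, 51.8, 52.3 and 49.8 CPM in other libraries S1, S3, S5 and S7. Goblet libraries were below all other-cell libraries in each region. Cyba fell by 0.86 ± 0.09 in DC goblet cells (log2, adjusted p = 7.68e-08) and by 0.52 ± 0.08 in Si8 goblet cells (adjusted p = 2.02e-05). Both calls held in all 21 alternatives. The difference between the regions, −0.34 ± 0.12, had an adjusted p of 0.0361 but passed in 8 of 20 alternatives. It was lost without S9 (adjusted p = 0.0914), S18 (0.0627), S10 (0.0646), S14 (0.0529), S17 (0.0543), S2 (0.0767), S4 (0.0652), S6 (0.0544), S1 (0.0564), S5 (0.0517) or S7 (0.0653), and with no filter on low counts (0.0766).

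Nox4 (chr7:87246096-87398710, plus strand) was close to absent from the counts. It had 1 count in DC goblet library S11, 2 in DC goblet library S18 and 1 in Si8 goblet library S2, and 0 in all 8 other-cell libraries. In 4 DC other libraries together, 0 counts allow a level of up to 0.0442 CPM, and in 4 Si8 other libraries up to 0.0231 CPM, taking 3 counts as the limit and counting error only. No comparison was made for Nox4.

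**Figure D2:**
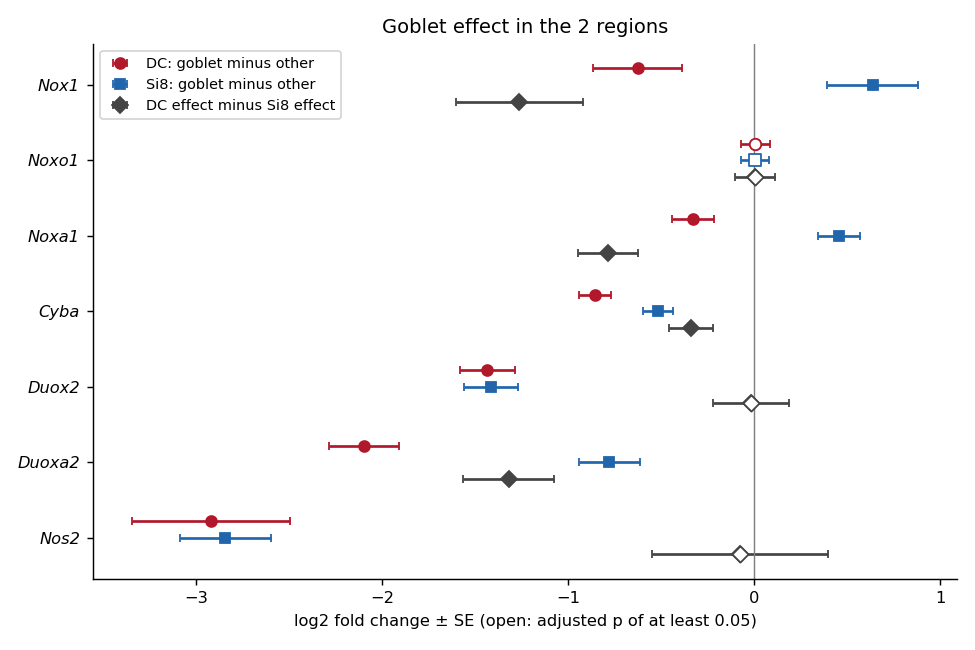
Log2 fold change ± SE of goblet over other cells in DC (circles) and Si8 (squares), and the difference between these effects (diamonds), for the 7 tested genes, open where the adjusted p was at least 0.05. Nox1 lies at −0.63 in DC and 0.64 in Si8, Noxa1 at −0.33 and 0.46, while Duox2 lies at −1.43 and −1.42.

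Duox2, the dual oxidase, had 116, 132, 103 and 111 CPM in DC goblet libraries S9, S11, S13 and S18, against 284, 365, 285 and 315 CPM in DC other libraries S10, S12, S14 and S17. In Si8 it had 817, 804, 961 and 593 CPM in goblet libraries S2, S4, S6 and S8, against 1825, 1740, 2642 and 2266 CPM in other libraries S1, S3, S5 and S7. The 4 groups did not overlap, and the highest group mean was 18.3 times the lowest. The fall in goblet cells was of like size in both regions, by 1.43 ± 0.15 in DC (log2, adjusted p = 9.39e-08) and by 1.42 ± 0.15 in Si8 (adjusted p = 8.63e-08). Their difference was −0.02 ± 0.20, with a 95% interval of −0.45 to 0.41 (adjusted p = 0.961).

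Duoxa2, the maturation factor of Duox2, had 8.04, 10.1, 6.64 and 8.60 CPM in DC goblet libraries S9, S11, S13 and S18, against 34.6, 43.1, 30.4 and 35.3 CPM in DC other libraries S10, S12, S14 and S17. In Si8 it had 173, 144, 203 and 108 CPM in goblet libraries S2, S4, S6 and S8, against 262, 228, 318 and 269 CPM in other libraries S1, S3, S5 and S7. No 2 groups overlapped, and the groups stood in the same order as for Duox2. Duoxa2 fell by 2.10 ± 0.19 in DC goblet cells (log2, adjusted p = 3.44e-08) and by 0.78 ± 0.16 in Si8 goblet cells (adjusted p = 0.000460). Here the difference of −1.32 ± 0.25 passed (adjusted p = 0.000452) and held in all 20 alternatives. Duoxa1, which lies on the opposite strand over 42.8% of the Duoxa2 exon length, had 1 to 14 counts per library. As the strand setting of the counting is not given, the Duoxa2 level and its ratio to Duox2 are uncertain too.

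Set against each other per exon length, the partners stood in a different ratio in goblet and other cells of each region. Duox2 stood at 3.29 ± 0.29 times Duoxa2 in DC goblet cells, 2.06 ± 0.12 times in DC other cells, 1.21 ± 0.11 times in Si8 goblet cells and 1.84 ± 0.16 times in Si8 other cells (SD, n = 4 each). All DC goblet libraries, at 3.02 to 3.66, lay above the DC other libraries, at 1.93 to 2.21, and all Si8 goblet libraries, at 1.11 to 1.31, lay below the Si8 other libraries, at 1.64 to 1.98. The ranges of the DC other and Si8 other libraries overlapped. On the log2 scale the ratio differed by 0.67 between DC goblet and DC other cells and by −0.61 between Si8 goblet and Si8 other cells. This ratio was chosen after its values were seen, so no test of it is given.

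**Figure D3:**
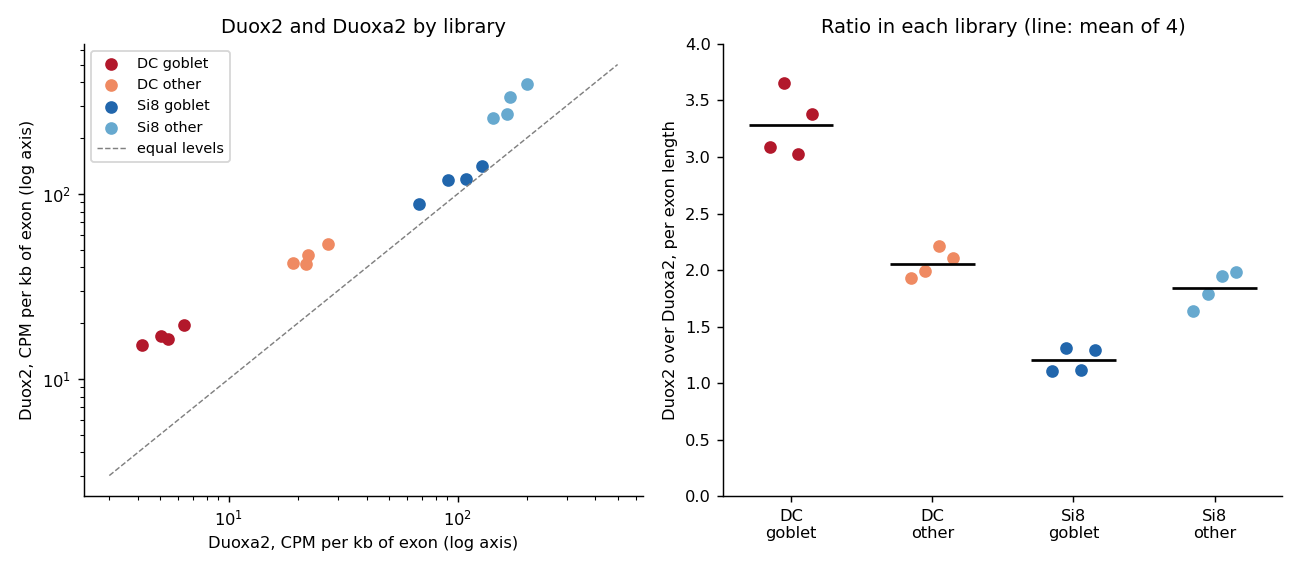
Left, Duox2 against Duoxa2 in CPM per kb of exon on log axes, 1 point per library, with a dashed line at equal levels. Right, the ratio of Duox2 to Duoxa2 per library with the mean of 4 (line), which is 3.29 in DC goblet, 2.06 in DC other, 1.21 in Si8 goblet and 1.84 in Si8 other cells.

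Nos2 (chr11:78920787-78960254, plus strand) spanned the widest range, with a highest group mean 2377 times the lowest. It had 0.492, 1.11, 0.209 and 0.735 CPM (9, 24, 4 and 10 counts) in DC goblet libraries S9, S11, S13 and S18, against 5.26, 6.48, 2.61 and 5.38 CPM in DC other libraries S10, S12, S14 and S17. In Si8 it had 238, 187, 270 and 149 CPM in goblet libraries S2, S4, S6 and S8, against 1455, 1132, 2016 and 1454 CPM in other libraries S1, S3, S5 and S7. The groups were separated without overlap. Nos2 fell by 2.92 ± 0.43 in DC goblet cells (log2, adjusted p = 1.96e-05) and by 2.84 ± 0.25 in Si8 goblet cells (adjusted p = 3.71e-08). The difference between these was −0.08 ± 0.47, with a wide 95% interval of −1.08 to 0.93. Myeloid markers, of which 9 were listed, summed to 4.6 to 6.47 CPM in DC goblet against 6.54 to 9.45 CPM in DC other cells. In Si8 they summed to 35.4 to 81.5 CPM in goblet against 49.5 to 88.2 CPM in other cells. Of the 6 myeloid markers tested, 1 was higher and 4 lower in DC goblet cells, and 0 were higher and 3 lower in Si8 goblet cells. With 1 library left out, 0 to 1 were higher and 3 to 4 lower in DC, and 3 to 5 were lower in Si8. Over all tested genes 27.8% were higher and 27.9% lower in DC, and 33.1% higher and 31.8% lower in Si8. Most of the Si8 sum was Itgam, at 40.0 ± 10.4 CPM in goblet against 50.5 ± 13.8 in other cells. Itgax was at 0.54 ± 0.371 CPM in Si8 goblet against 7.36 ± 1.24 in Si8 other cells, whereas Cd68 was at 3.53 ± 0.495 CPM in DC goblet against 2.23 ± 0.537 in DC other cells. S100a9 had 0 counts in DC goblet cells and 1 in DC other cells. The part of myeloid cells, and of the lymphocytes counted above, was not tested.

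Between the regions, goblet cells of DC had 1 member higher and 4 lower than goblet cells of Si8, where 30.6% of all genes were called higher and 31.5% lower. Other cells of DC had 2 members higher and 4 lower than other cells of Si8, against 33.3% and 33.6% of all genes. Nox1 was higher in DC by 1.09 ± 0.24 in goblet cells (adjusted p = 0.00104) and by 2.35 ± 0.25 in other cells (adjusted p = 4.52e-07). Noxa1 was higher by 0.89 ± 0.11 in DC other cells (adjusted p = 1.03e-06) and did not pass in goblet cells, at 0.10 ± 0.11 (adjusted p = 0.436). These regional comparisons cross 2 count tables that differ in depth and in the mitochondrially encoded genes, which had 0 counts in DC.

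The dual oxidase pair, the nitric oxide synthase and Cyba, the membrane partner of Nox1, were lower in DC. Nos2 was lower in DC than in Si8 with −8.34 ± 0.37 in goblet cells (324-fold, adjusted p = 7.49e-12) and −8.26 ± 0.33 in other cells (308-fold, adjusted p = 9.90e-13). Duoxa2 had −4.23 ± 0.19 in goblet (18.8-fold lower) and −2.91 ± 0.18 in other cells (7.52-fold lower). Duox2 had −2.78 ± 0.16 in goblet (6.87-fold lower) and −2.76 ± 0.15 in other cells (6.78-fold lower). Cyba had −1.0 ± 0.09 in goblet and −0.66 ± 0.08 in other cells. The largest adjusted p among these values of Duox2, Duoxa2 and Cyba was 8.77e-07, for Cyba in other cells. Noxo1 did not pass, at 0.11 ± 0.08 in goblet (adjusted p = 0.227) and 0.10 ± 0.08 in other cells (adjusted p = 0.243).

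The 4 members whose goblet effect differed between DC and Si8 were Nox1, Noxa1, Cyba and Duoxa2, each with the effect in DC below that in Si8. No member differed in the other direction. Over all tested genes 15.6% were called higher and 16.5% lower in this comparison, and the median difference was −0.34 for the members and −0.03 for all tested genes.

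Set side by side per kb of exon, the tested members formed a different order in each group. In DC goblet cells the highest were Noxo1 at 30.2 ± 1.33 and Noxa1 at 28.1 ± 3.30 CPM per kb. The lowest was Nos2 at 0.144 ± 0.0866, and the Noxo1 level is uncertain, as given above. In DC other cells Duox2 led at 46.1 ± 5.57 CPM per kb, ahead of Noxa1 at 35.3 ± 5.58 and Cyba at 31.0 ± 0.427. In DC the catalytic subunits Nox1 and Duox2 were within a few-fold of each other, at 14.6 ± 2.97 and 17.1 ± 1.83 CPM per kb in goblet and 22.5 ± 3.56 and 46.1 ± 5.57 CPM per kb in other cells.

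In Si8 the balance lay with the dual oxidase. Duox2 stood at 117 ± 22.4 CPM per kb in goblet and 313 ± 61.8 in other cells, whereas Nox1 stood at 6.86 ± 2.38 in goblet and 4.42 ± 1.46 in other cells. Nos2 reached 343 ± 83.2 CPM per kb in Si8 other cells, 1.09 ± 0.12 times Duox2, against 47.8 ± 12.1 in Si8 goblet cells, 0.405 ± 0.04 times Duox2. Nox1 was below its partners in each Si8 group, at 0.246 ± 0.09 times Noxo1 in goblet and 0.16 ± 0.06 times in other cells. In DC it was below Noxo1 too, at 0.482 ± 0.10 times in goblet and 0.749 ± 0.12 times in other cells. The uncertainty of the Noxo1 level given above bears on each of these ratios.

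The mean goblet level was also expressed as a percentage of the mean other-cell level and set beside that of absorptive cell markers. In DC this was 12.9% for Nos2, 23.3% for Duoxa2, 37.0% for Duox2, 55.2% for Cyba, 64.7% for Nox1, 79.6% for Noxa1 and 100.4% for Noxo1. The 6 absorptive markers of distal colon stood at 1.59% (Slc9a3) to 6.68% (Krt20). In Si8 it was 13.9% for Nos2, 37.5% for Duox2, 58.3% for Duoxa2, 69.9% for Cyba, 100.1% for Noxo1, 137% for Noxa1 and 155% for Nox1, against 4.02% (Apoa4) to 19.7% (Fabp2) for the 6 ileal absorptive markers. By these means Nos2 of Si8 lay within the range of the 6 ileal markers, and the other members in Si8 lay above it. In DC all members lay above the 6 distal colon markers. The distal colon markers were not set beside the members in Si8. There Krt20 had 1148 ± 380 CPM in goblet against 2729 ± 601 in other cells. Slc9a3 had 7.49 ± 0.998 CPM in Si8 goblet against 67.8 ± 10.1 in Si8 other cells. The range in Si8 thus depends on the markers chosen. The part of other-cell RNA in the goblet libraries was not tested.

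**Figure D4:**
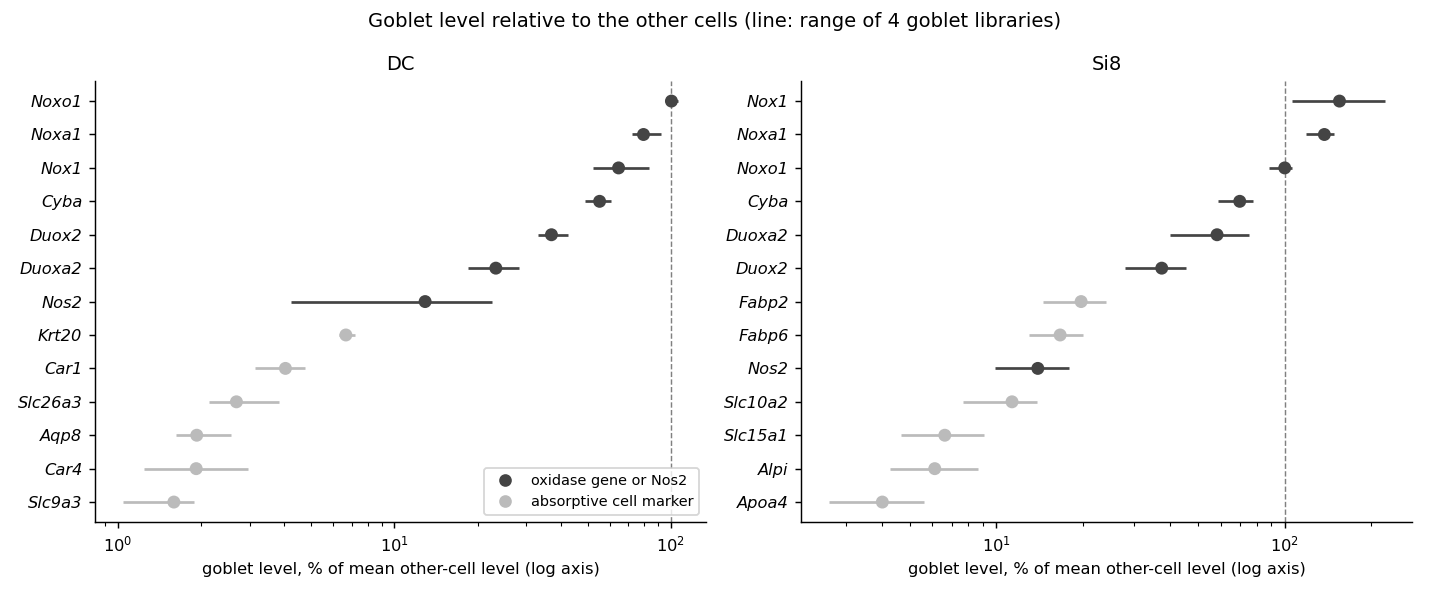
Goblet level as a percentage of the mean other-cell level on a log axis in DC (left) and Si8 (right), with members in dark and absorptive markers in pale grey, points for the mean and lines for the range of 4 goblet libraries. The means of members other than Nos2 in Si8 (13.9%) lie to the right of the markers shown, whose highest means are 6.68% in DC and 19.7% in Si8.

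The genes most like each member were found by the root mean square difference of log2 levels over the 16 libraries, each gene centred on its own mean. Duox2 was followed most closely by Ttyh2 (0.206) and Myo7a (0.210), ahead of Parp14 (0.255), while Duoxa2 itself lay at 0.497. Ttyh2 averaged 9.25 ± 1.42 CPM in DC goblet, 26.5 ± 4.68 in DC other, 63.1 ± 3.0 in Si8 goblet and 149 ± 17.7 in Si8 other cells. Nos2 was followed by Clca4b (0.394), Cd74 (0.608) and Slc51a (0.615), all farther off. Clca4b averaged 1.70 ± 0.538 CPM in DC goblet, 8.18 ± 2.51 in DC other, 273 ± 44.3 in Si8 goblet and 2868 ± 314 in Si8 other cells.

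Duoxa2 was most like a gene whose symbol a spreadsheet had turned into a date (0.286), then Gm5431 (0.305) and Oasl2 (0.370). Nox1 was most like Paics (0.300), Gsta3 (0.315) and Nrep (0.320), Noxa1 like P2ry6 (0.0844), Nipsnap1 (0.124) and Pms2 (0.131), and Cyba like Aprt (0.112), Chmp6 (0.114) and Tspan15 (0.117). Noxo1, which hardly varied, was most like Fastk (0.0753), Sra1 (0.0774) and Nudt13 (0.0791). Among the members themselves the nearest pair was Noxo1 and Noxa1 (0.312).

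The rest of the oxidase machinery was read from a list of 13 phagocyte and other NADPH oxidase parts, of which 10 were tested. In DC goblet cells 2 were higher and 4 lower, and in Si8 goblet cells 4 were higher and 5 lower, with medians of −0.17 in both. Over all tested genes the shares were 27.8% higher and 27.9% lower in DC and 33.1% higher and 31.8% lower in Si8, and these also stand behind the list counts that follow, so a count near them is not a result about its list. Sh3pxd2a, which encodes the scaffold Tks5, a relative of the phagocyte organizer, had 53.1 ± 4.82 CPM in DC goblet against 11.9 ± 2.12 in DC other cells, and 61.5 ± 14 in Si8 goblet against 2.37 ± 0.381 in Si8 other cells. It rose by 2.17 ± 0.15 in DC and by 4.70 ± 0.17 in Si8 (adjusted p = 4.02e-10 and 4.41e-14). Sh3pxd2b, its paralog Tks4, rose in Si8 goblet cells by 1.93 ± 0.15 (adjusted p = 9.83e-10), with a value of −0.12 ± 0.14 in DC (adjusted p = 0.498). The phagocyte organizer Ncf1 had −3.79 ± 0.66 in DC and −3.29 ± 0.30 in Si8 (adjusted p = 6.98e-05 and 1.19e-08), with at most 17 counts in any DC library. Rac2, the GTPase of blood cells, had −0.91 ± 0.37 in DC and −2.21 ± 0.17 in Si8 (adjusted p = 0.0408 and 1.47e-09), and the call in DC was lost without S9, S11, S18, S12, S14 or S17 (adjusted p of 0.0588 to 0.116). The sums of the lymphocyte markers given above were lower in the goblet sorts too, from few counts in DC, and their part was not tested.

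Enzymes that clear oxidants were mixed. Of 13 peroxiredoxin and thioredoxin genes, 3 were higher and 5 lower in DC goblet cells, and 3 higher and 4 lower in Si8 goblet cells. The number higher was 1 in DC without S11, S13, S12 or S17, and 5 in Si8 without S12, S1 or S3. Prdx6, a peroxiredoxin that uses glutathione, averaged 187 ± 19.2 CPM in DC goblet against 2503 ± 181 in DC other cells, a fall of 3.74 ± 0.11 (13.4-fold, adjusted p = 1.29e-15). In Si8 it averaged 158 ± 16.1 CPM in goblet and 195 ± 19.6 in other cells (−0.31 ± 0.10, adjusted p = 0.0108), and the difference between the regions was −3.43 ± 0.14 (adjusted p = 1.20e-12). Srxn1, the sulfiredoxin that repairs overoxidized peroxiredoxins, fell in goblet cells, with −2.14 ± 0.11 in DC and −1.80 ± 0.10 in Si8, as did Prdx5, with −1.07 ± 0.10 in DC and −1.26 ± 0.09 in Si8. Txnip, the thioredoxin-binding protein, fell by 0.85 ± 0.15 in DC and had −0.26 ± 0.15 in Si8 (adjusted p = 0.136).

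Of the 3 tested superoxide dismutase and catalase genes, 0 were higher and 1 lower in DC goblet cells, and 0 higher and 2 lower in Si8 goblet cells. Sod1, the cytosolic dismutase, fell, with −0.84 ± 0.06 in DC (adjusted p = 1.07e-09) and −0.15 ± 0.06 in Si8 (adjusted p = 0.0442). The Sod1 call in Si8 was lost in 17 of 21 alternatives, among them each fit that left out a library other than S2 or S5 (adjusted p of 0.0529 to 0.123). The number lower in Si8 on this list was 1 without S4, S6, S8, S1, S3 or S7 and 4 with DESeq2. Cat, catalase, averaged 61.7 ± 2.45 CPM in DC goblet and 61.4 ± 5.01 in DC other cells (0.01 ± 0.10), but 38.1 ± 3.0 in Si8 goblet against 88.2 ± 14.4 in Si8 other cells (−1.21 ± 0.10, adjusted p = 2.07e-09). Its difference between regions, 1.22 ± 0.14, passed (adjusted p = 1.10e-06). Of 6 glutathione peroxidases, 2 were higher and 1 lower in DC, and 1 higher and 4 lower in Si8. The number higher was 1 in DC with any 1 of the 8 Si8 libraries left out, and 2 in Si8 without S3. Gpx4, which reduces lipid peroxides, fell, with −0.48 ± 0.09 in DC and −0.96 ± 0.08 in Si8, and the epithelial Gpx2 had 0.13 ± 0.11 in DC (adjusted p = 0.343) and fell by 0.35 ± 0.11 in Si8.

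Of 7 genes of glutathione synthesis and recycling, 2 were higher and 4 lower in DC goblet cells, and 3 higher and 4 lower in Si8 goblet cells. Slc7a11, which imports cystine for glutathione synthesis, rose by 2.05 ± 0.19 in DC and 3.13 ± 0.20 in Si8, to 17.3 ± 2.30 CPM in DC goblet against 4.18 ± 0.502 in DC other cells and to 12 ± 3.71 CPM in Si8 goblet against 1.36 ± 0.142 in Si8 other cells. Glrx, a glutaredoxin, fell, with −1.39 ± 0.11 in DC and −1.68 ± 0.10 in Si8, as did Gss, glutathione synthetase, with −1.13 ± 0.08 in DC and −0.52 ± 0.08 in Si8. Gclc, the catalytic subunit of the first step, fell by 0.73 ± 0.09 in DC and rose by 0.27 ± 0.09 in Si8, a call lost with RLE factors (adjusted p = 0.0512) and with DESeq2 (0.0605), with a tested difference of −1.0 ± 0.13 (adjusted p = 4.50e-06). Of 10 factors and targets of Nrf2, the regulator of the antioxidant response, 2 were higher and 6 lower in DC, and 1 higher and 6 lower in Si8. The number lower in Si8 was 3 without S4, S6, S8 or S1 and where each region was fitted alone. Hmox1, heme oxygenase, rose by 1.6 ± 0.21 in DC and 0.84 ± 0.21 in Si8. Nqo1, a quinone reductase, had −1.13 ± 0.15 in DC and −0.36 ± 0.14 in Si8 (adjusted p = 0.0342), where the call was lost without S4, S6, S8, S1 or S3 (adjusted p of 0.0682 to 0.144). The pentose phosphate enzymes Taldo1 and Pgd, which belong to the route that makes NADPH, fell too. Taldo1 had −0.49 ± 0.08 in DC and −0.67 ± 0.08 in Si8, and Pgd had −0.41 ± 0.08 in DC and −0.63 ± 0.08 in Si8.

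Around Nos2, 9 genes of arginine and nitric oxide metabolism were tested, and 3 were higher and 3 lower in goblet cells in either region. Gch1, which starts the synthesis of the Nos2 cofactor tetrahydrobiopterin, averaged 7.64 ± 0.582 CPM in DC goblet against 38.3 ± 4.30 in DC other cells and 22.8 ± 3.63 in Si8 goblet against 48.6 ± 7.81 in Si8 other cells. It fell, with −2.33 ± 0.13 in DC and −1.09 ± 0.12 in Si8 (adjusted p = 1.72e-11 and 1.72e-07). Arg2, the arginase that uses the same substrate as Nos2, fell, with −2.49 ± 0.35 in DC and −2.44 ± 0.24 in Si8. Ass1, which rebuilds arginine from citrulline, rose by 0.61 ± 0.14 in DC and 1.01 ± 0.14 in Si8. Ddah1, which breaks down methylarginine inhibitors of nitric oxide synthases, had 0.17 ± 0.09 in DC (adjusted p = 0.120) and fell in Si8, with −1.0 ± 0.09.

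Of 12 epithelial genes that respond to microbes, as Duox2 and Nos2 are known to do, 0 were higher and 8 lower in DC goblet cells, and 0 were higher and 9 lower in Si8 goblet cells, with medians of −1.58 and −1.29. The number higher in DC was 1 without S13 and with DESeq2. Slc6a14, an amino acid transporter, had 203 ± 30.3 CPM in DC goblet against 1122 ± 79.7 in DC other cells, and 14.3 ± 3.16 in Si8 goblet against 169 ± 35.7 in Si8 other cells. It fell, with −2.47 ± 0.16 in DC and −3.56 ± 0.17 in Si8, and unlike Duox2 and Nos2 it was higher in DC than in Si8, by 3.83 ± 0.17 in goblet and 2.73 ± 0.16 in other cells. Saa1 and Saa2, serum amyloid A genes near-identical in sequence whose counts are therefore uncertain, each fell, with −3.49 in DC and −2.29 in Si8 for both. Tnfaip2, a gene induced by tumour necrosis factor, had −2.73 ± 0.37 in DC and −2.16 ± 0.19 in Si8, with 2 to 6 counts per DC goblet library.

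**Figure D5:**
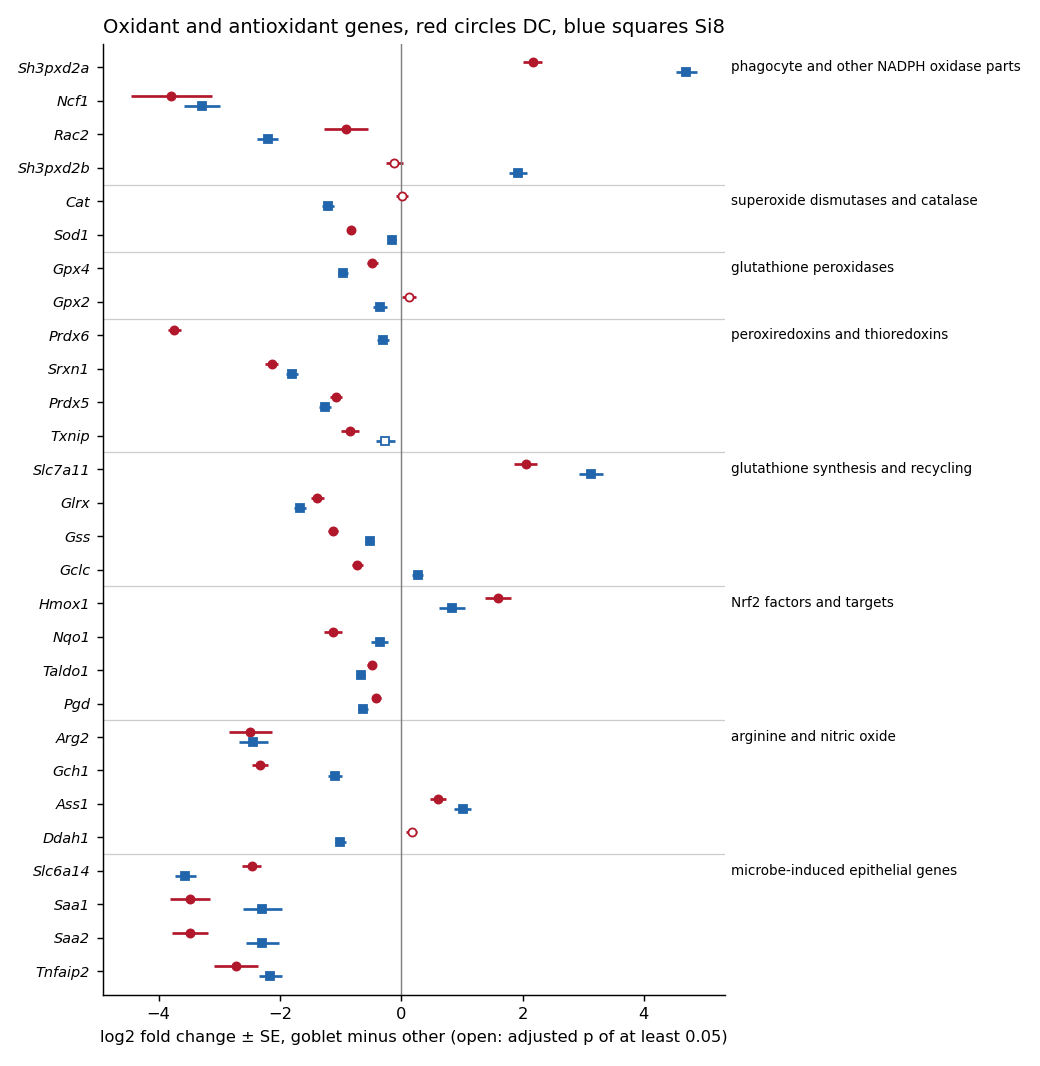
Log2 fold change ± SE of goblet over other cells in DC (red circles) and Si8 (blue squares) for the 28 genes named from the other lists, open where the adjusted p was at least 0.05. Sh3pxd2a and Slc7a11 lie to the right in both regions, Prdx6 lies at −3.74 in DC and −0.31 in Si8, and Cat lies at 0.01 in DC and −1.21 in Si8.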

How the data were processed

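Bulk RNA of 16 libraries was measured, 4 in each of 4 groups taken from the labels. The unit is read counts per gene, deposited by the authors as a table for each region. The submitters' processing notes name the tools STAR 2.4.0f, HTSeq 0.6.1p1, DESeq2 1.14 and FastQC 0.11.2, and the build mm10. For settings, strand included, the sources used here give nothing. A deposited table of normalized values was not used. Entries of 4 repeated symbols were left out, and 27 symbols turned into dates are not named. No per-sample column was left unused.

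Testing used edgeR (4.0.16, under R 4.3.3). Low genes were removed by filterByExpr, TMM factors were computed, and a robust quasi-likelihood model without covariates was fitted to the 4 groups at once. From it came 5 contrasts, each adjusted by Benjamini-Hochberg over 16001 genes. Each SE is |log2 fold change| divided by √F. The script was tested on simulated counts. CPM uses TMM-scaled totals of the tested genes, and the likeness of genes uses log2(CPM + 0.5). Exon lengths and coordinates are from GENCODE M21 (GRCm38), and promoters are from RefSeq (GRCm38.p6), which had an entry for 7 of 8 members. Alternatives were RLE factors, DESeq2 1.42.0, no filter on low counts, mitochondrially encoded genes left out, each region alone, and each library left out. The mean CPM of each tested member per group was also recomputed from totals without TMM factors and from totals without Muc2 and Fcgbp.

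The members and lists were chosen with earlier results of these data known. Every member is named. From each other list, up to 4 called genes are named by the largest absolute goblet effect in DC or Si8, if their higher group averaged 5 CPM or more. The 3 genes nearest each member in likeness are named too. Sample numbers are all different, so they do not show whether any libraries are paired. Totals of 11.9 to 41.1 M counts set the precision, and few counts are behind Nos2, Ncf1, Rac2, Arg2, Saa2 and Tnfaip2 in DC. Limits on 0 counts cover counting error only.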

Additional observations from a re-analysis of the deposited data

Results flagged for a closer look

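4 members were flagged because their goblet effect (goblet over other cells, log2) differed between the regions in edgeR's quasi-likelihood test of the difference itself, DC effect minus Si8 effect. The difference was −1.26 ± 0.34 for Nox1 (adjusted p = 0.00962), −0.79 ± 0.16 for Noxa1 (adjusted p = 0.000764), −0.34 ± 0.12 for Cyba (adjusted p = 0.0361) and −1.32 ± 0.25 for Duoxa2 (adjusted p = 0.000452). Nox1 and Noxa1 had effects of opposite sign in DC and Si8, whereas Cyba and Duoxa2 were lower in goblet cells of both. The difference for Cyba was lost in 12 of 20 alternatives, and those for Nox1, Noxa1 and Duoxa2 were kept in all 20.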

How the results depend on the processing

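The falls of Duox2, Duoxa2, Nos2 and Cyba in goblet cells passed in both regions in all 21 alternatives. The number of members called higher in Si8 goblet cells was 2, and 1 with no filter on low counts, with each region fitted alone, and in 5 of 16 fits that left out a library (1 to 2 over all 16), because Nox1 lost its call. Noxo1 changed sign around 0: in DC it was −0.034 with RLE factors, −0.030 without mitochondrially encoded genes, −0.014 with each region alone and −0.036 with DESeq2, in Si8 −0.052 with RLE factors and −0.051 with DESeq2, and in the difference between regions −0.027 with no filter and −0.043 without mitochondrially encoded genes. With 1 library left out, Noxo1 ranged from −0.035 to 0.027 in DC, from −0.044 to 0.064 in Si8 and from −0.066 to 0.059 in the difference, the difference of Duox2 from −0.13 to 0.086 and that of Nos2 from −0.58 to 0.23. Cat in DC changed sign too, to −0.033 with RLE factors, −0.029 without mitochondrially encoded genes, −0.014 with each region alone and −0.036 with DESeq2, and ranged from −0.073 to 0.057 with 1 library left out. Txnip in Si8 passed with no filter on low counts (edgeR adjusted p = 0.0425). Of the other changes of the members' fold changes, 4 lost calls came from the settings and 26 from leaving out a library, and no scaling moved the median of all genes by more than 0.1. The members' group means in CPM depended on the totals used. With totals without TMM factors or without Muc2 and Fcgbp, 20 means moved by at least the SD of their group and 36 did not. Depth limits Nox4, the phagocyte parts in DC, and Nos2, Arg2, Saa2 and Tnfaip2 in DC goblet cells. No paired analysis was run, because no label ties a goblet library to an other-cell library. Whether such libraries came from the same animals is not known.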

Other observations

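Lpo, which encodes lactoperoxidase, an enzyme that uses hydrogen peroxide to make antimicrobial oxidants, is a heme peroxidase and had enough counts to be tested. It averaged 14.7 ± 0.987 CPM in DC goblet and 12.6 ± 2.94 CPM in DC other cells (SD, n = 4 libraries each), from 199 to 331 counts per DC goblet library and 159 to 280 per DC other library. The 4 Si8 goblet libraries together had 1 count and the 4 Si8 other libraries 5 counts. No ratio between the regions is given, because it would rest on 1 count in Si8 goblet and 5 in Si8 other libraries. Lpo had enough counts to be tested through the DC libraries, so its higher level in DC is not an independent result. The regions also come from separate count tables, which differ in depth and in the mitochondrially encoded genes, as given above. The goblet effect of Lpo did not pass in DC, at 0.23 ± 0.17 (edgeR adjusted p = 0.282). Lpo counts were found mainly in DC, the region where Duox2 was lower and Nox1 higher. Whether these are linked was not tested. Mpo and Epx had at most 6 counts in any library.

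Cybb, the catalytic subunit of the phagocyte oxidase, had 0 to 5 counts per library in DC goblet against 13 to 27 in DC other cells, and 4 to 43 in Si8 goblet against 51 to 100 in Si8 other cells. Duox1, the other dual oxidase, stood at 0.667 ± 0.162 CPM in DC goblet, 0.436 ± 0.149 in DC other, 0.876 ± 0.101 in Si8 goblet and 0.614 ± 0.0433 in Si8 other cells. Nos1 and Nos3, the neuronal and endothelial nitric oxide synthases, had at most 7 counts in any library.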
